A study of Mus musculus with 9 samples.

Results

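The genes described here are 10 genes of MHC class II antigen presentation, chosen by symbol and all found among the 18571 genes of the deposited table. They are the class II chains H2-Aa, H2-Ab1 and H2-Eb1, the peptide exchange chains H2-DMa and H2-DMb1, the invariant chain Cd74, the transactivator Ciita, and the surface costimulators Cd80, Cd86 and Cd40. All 10 passed the filter on low counts and were tested. PolyA RNA was sequenced from cells labelled microglia, taken from the cortex and hippocampus of 9-month-old mice by panning on an antibody to CD45, a protein of all leukocytes. The deleted gene, Gja1, encodes connexin 43 (Cx43). Each of 3 groups had 3 libraries. The groups were wild type (WT in the plots), APP/PS1, which carries human disease transgenes and develops amyloid deposits, and APP/PS1:Cx3cr1-CreER:Cx43-flox/flox, called cKO here (Cx43 cKO in the plots). The tamoxifen protocol (0.1 mg/g by gavage on 5 days at 8 months of age) is attached to all 9 libraries. Cx3cr1 drives the recombinase in microglia and also in other myeloid cells. By their labels the wild type and APP/PS1 groups carry neither the recombinase nor floxed Cx43, so the cKO differs from APP/PS1 in the Cre allele as well as in Cx43. The labels do not say whether the libraries of a group came from separate mice, so the p-values measure the spread between these libraries, which may be technical.

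Class II molecules display peptides from engulfed material to CD4 T cells. An alpha and a beta chain assemble on the invariant chain, cathepsins degrade that chain to a small fragment, and H2-DM exchanges the fragment for peptide. Ciita is recruited to conserved boxes in the promoters of these genes by the RFX complex, CREB and NF-Y, and interferon gamma induces it. Resting microglia carry little class II, and its level rises when they are activated.

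The promoter boxes are shown because class II genes are known to share them. In the RefSeq promoter table (GRCm38.p6, the build named in the submitters' processing notes), windows of 5 of these genes were searched, and 3 of the 5 genes had the Y box ATTGG shortly before the start site. The stretches below run 5′ to 3′ on the strand of the gene. Capitals mark the Y box and, where present, the X core AGNAAC lying 10 to 30 bases before it on the same strand. H2-Oa, H2-Ob and H2-DMb2 belong to the wider pathway and are shown for comparison.
H2-Aa, chr17:34287859-34287923, minus strand, 100 to 36 bases before the start: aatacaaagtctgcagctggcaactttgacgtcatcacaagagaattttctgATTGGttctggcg
H2-Eb1, chr17:34305756-34305820, plus strand, 111 to 47 bases before the start: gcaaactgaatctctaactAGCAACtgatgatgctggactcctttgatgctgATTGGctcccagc
H2-DMb1, chr17:34153078-34153142, plus strand, 113 to 49 bases before the start: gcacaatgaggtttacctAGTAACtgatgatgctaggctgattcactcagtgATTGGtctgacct
H2-DMb2, chr17:34145107-34145171, plus strand, 142 to 78 bases before the start: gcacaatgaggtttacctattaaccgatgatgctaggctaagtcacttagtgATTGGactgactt
H2-Oa, chr17:34092284-34092348, plus strand, 95 to 31 bases before the start: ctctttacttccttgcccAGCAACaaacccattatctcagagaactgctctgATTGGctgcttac
H2-Ob, chr17:34238796-34238860, plus strand, 109 to 45 bases before the start: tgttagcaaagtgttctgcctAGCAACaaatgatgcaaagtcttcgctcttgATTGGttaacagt

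The X core followed by the Y box was found in H2-Eb1, H2-DMb1, H2-Oa, H2-Ob and H2-Eb2, with 25 to 28 bases between the boxes. On either strand, 1.17% of the 32851 promoter windows of 300 bases in the table held this pair and 37.4% held CCAAT or its complement ATTGG. The H2-Aa and H2-DMb2 windows held the Y box without this spelling of the X core. The windows of Cd80 and H2-DMa held no such pair. H2-Ab1, Cd74, Ciita, Cd86 and Cd40 are named only.

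Total estimated counts were 18907681 to 19565354 per library. Gja1 fell from 39.7 CPM ± 2.71 in APP/PS1 to 26.9 CPM ± 1.41 in cKO (SD, n = 3; log2 change -0.56, SE 0.06, edgeR adjusted p 7.95e-09), and it was 33.6 CPM ± 1.77 in wild type. Astrocyte markers (5 genes) summed to 195 to 205 CPM in wild type, 261 to 268 in APP/PS1 and 216 to 223 in cKO. The part of astrocytes in the Gja1 values was not tested. The Y-linked gene Ddx3y was at 208 CPM in wild type, 237 CPM in APP/PS1 and at most 2.34 estimated counts per library in cKO, so sex and Cx43 genotype cannot be told apart here. CPM is the estimated count scaled to the library size after TMM, and a gene is called at an edgeR quasi-likelihood adjusted p under 0.05 over 14696 tested genes. Scaling changed the balance of calls over all genes. In APP/PS1 against wild type, 45.7% of called genes were higher with TMM, 29.5% with library totals, 30.2% on FPKM with either pseudocount and 14.7% on TPM, where the median of all genes moved to -0.17, -0.11 and -0.16, and -0.35. In cKO against APP/PS1 the share was 49.6% with TMM and 75.3% on TPM (median 0.14). In cKO against wild type it was 51.9% with TMM, 30.4% with library totals (median -0.12), 32.0% and 31.9% on FPKM (medians -0.08 and -0.11) and 19.8% on TPM (median -0.17). Changes on those scales are therefore also given relative to the median of all genes.

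Per transcript length, the invariant chain was the most abundant of the 10 genes. On the deposited TPM scale, which is scaled to length, Cd74 ranged from 944 to 1462 TPM over the 9 libraries, H2-Aa from 397 to 668, H2-Ab1 from 302 to 539 and H2-Eb1 from 188 to 361. In every library the order of these 4 was the same, with H2-Ab1 between H2-Aa and H2-Eb1. H2-DMa (150 to 188 TPM) and Cd86 (142 to 178 TPM) were not separated, and the range of H2-DMb1 (122 to 142 TPM) just reached that of Cd86. Cd80 followed at 33.5 to 52.3 TPM. Cd40 (4.96 to 8.80 TPM) and Ciita (1.05 to 2.13 TPM) were the lowest, with 75 to 127 and 64 to 118 estimated counts per library, so their values are the least precise of the 10. Cd74 ranked 104th in the table by mean TPM in wild type, where Ciita ranked 12370th.

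In APP/PS1 against wild type the class II genes split. H2-DMa, H2-DMb1, Cd86 and H2-Aa rose, H2-Eb1, Cd74, Ciita and Cd80 fell, and H2-Ab1 and Cd40 did not pass. The rise of H2-Aa turned into a fall once GC content and transcript length were corrected for. That made 8 of 10 genes called, where 59.0% of all tested genes were called. The share called higher was 26.9% of all genes and the share called lower 32.0%. The median log2 change of the 10 genes was 0.10, beside -0.04 for all tested genes.

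In cKO against APP/PS1 the change was in 1 direction. H2-Aa, H2-Ab1, H2-Eb1, H2-DMa, H2-DMb1, Cd80, Cd86 and Cd40 fell, while Cd74 and Ciita did not pass. None of the 10 was called higher (27.3% of all genes were), and none was higher at an unadjusted p under 0.05 with edgeR, DESeq2 or limma-voom. Of all tested genes, 27.7% were called lower and 55.0% in either direction. Cd74 was called higher with offsets, where 7 genes were lower, and on TPM (0.19, limma adjusted p 0.000690), where 5 were lower. The median log2 change of the 10 genes was -0.29, beside -0.01 for all tested genes. Against wild type, 7 of the 10 genes were lower and 1 (H2-DMb1) higher in cKO, where 23.0% of all genes were called lower, 24.7% higher and 47.7% in either direction. At 2-fold or more, 0 of the 10 genes were called in any comparison (edgeR; also 0 at an unadjusted p under 0.05 with edgeR, DESeq2 or limma-voom), where 8.55%, 7.65% and 5.19% of all genes were called in APP/PS1 against wild type, cKO against APP/PS1 and cKO against wild type. These comparisons share libraries, so their signs are not independent of each other. In bulk RNA, fewer cells of a type and less RNA per cell cannot be told apart.

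**Figure D1:**
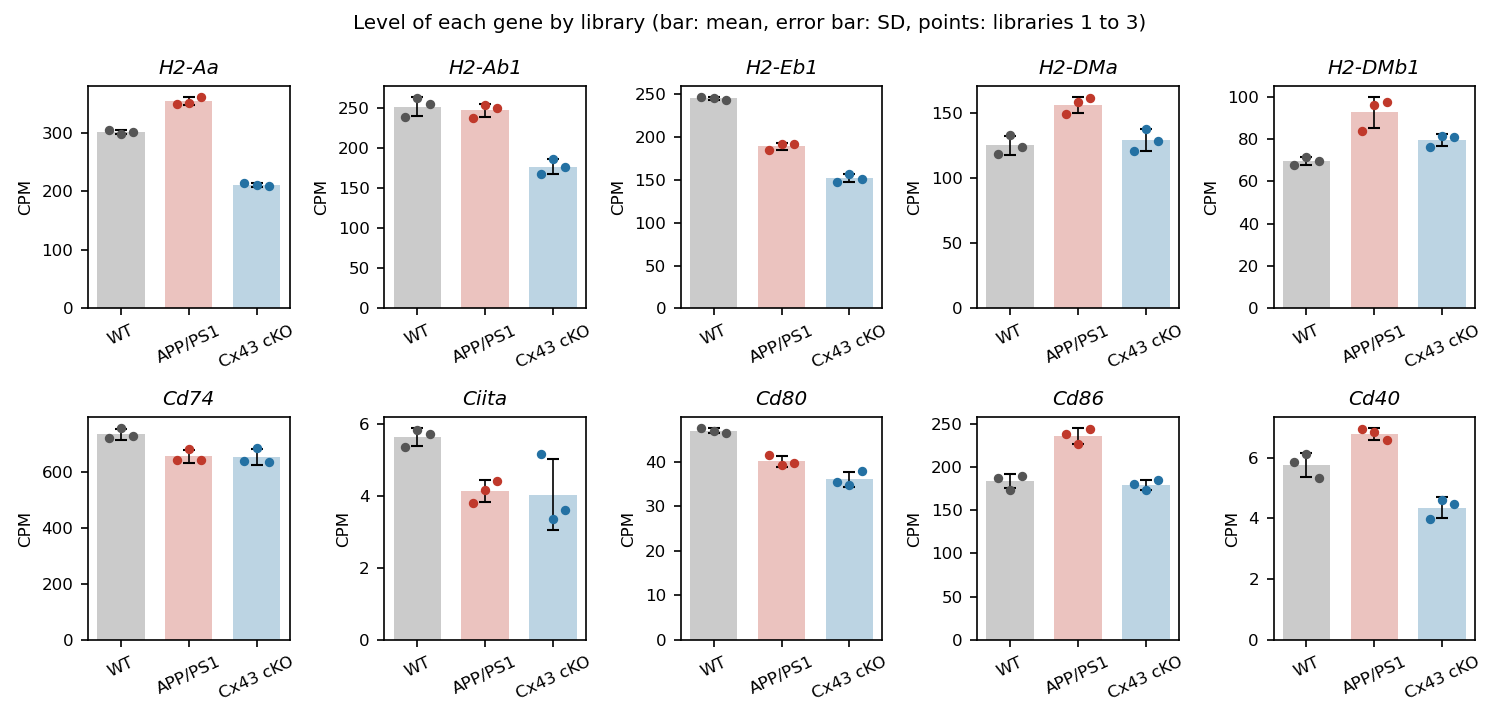
CPM (TMM-scaled, linear axes from 0) of each of the 10 genes by group; bars are means, error bars SD and points the libraries 1 to 3. The cKO libraries of H2-Aa lie at 209 to 215 CPM, below the 350 to 362 CPM of APP/PS1 and the 298 to 305 CPM of wild type.

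H2-Aa encodes the alpha chain of I-A, a class II molecule of the mouse (gene 14960, chr17:34282744-34287823, GRCm38.p6). Its level was 305, 298 and 302 CPM in wild type libraries 1 to 3, 350.3, 350.7 and 362 CPM in APP/PS1 and 215, 211 and 209 CPM in cKO. The 3 groups did not overlap, with APP/PS1 highest and cKO lowest. The log2 change was -0.75 in cKO against APP/PS1 (SE 0.03, edgeR adjusted p 1.08e-17), which is 40.3% lower, and -0.51 against wild type (SE 0.03, edgeR adjusted p 5.73e-14). APP/PS1 was 0.23 above wild type (SE 0.03, edgeR adjusted p 1.06e-07). With transcripts of 1128 nt, H2-Aa lies among the shortest of 10 length bins, in which 1446 genes (216 to 1316 nt) moved by a median of 0.52 (log2) in APP/PS1 against wild type and -0.47 in cKO against APP/PS1. With offsets for GC content and length, H2-Aa was 0.35 lower in APP/PS1 than in wild type (log2 change -0.35, edgeR adjusted p 9.68e-14), -0.29 in cKO against APP/PS1 (edgeR adjusted p 2.39e-11) and -0.65 in cKO against wild type (edgeR adjusted p 5.00e-20). Its fall in cKO thus stood under both fits, and its direction between APP/PS1 and wild type did not.

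H2-Ab1 encodes the beta chain that pairs with H2-Aa (gene 14961, chr17:34263227-34269418). It was at 238, 262 and 254 CPM in wild type, 237.6, 253 and 249 CPM in APP/PS1 and 168, 186 and 175 CPM in cKO. Wild type and APP/PS1 overlapped, and the cKO libraries lay below both. The change was -0.48 against APP/PS1 (SE 0.04, edgeR adjusted p 1.05e-09) and -0.51 against wild type (SE 0.04, edgeR adjusted p 5.45e-10). The value for APP/PS1 against wild type was -0.03 (SE 0.04, edgeR adjusted p 0.585). H2-Ab1, at 1212 nt, shares the length bin of H2-Aa. With the offsets it was -0.09 in cKO against APP/PS1 (edgeR adjusted p 0.0162), -0.52 in APP/PS1 against wild type (edgeR adjusted p 2.97e-16) and -0.60 in cKO against wild type (edgeR adjusted p 1.28e-17). The difference from wild type was therefore of like size under both fits, whereas the fit decided between which groups it lay.

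H2-Eb1 encodes the beta chain of I-E (gene 14969, chr17:34305867-34316674). Its partner, the I-E alpha chain, is annotated as the pseudogene H2-Ea-ps, which held at most 1 count in any library. H2-Eb1 itself was at 248, 246 and 244 CPM in wild type, 185, 191.5 and 191.9 CPM in APP/PS1 and 148, 157 and 152 CPM in cKO. The groups stepped down without overlap. APP/PS1 was below wild type by a log2 change of -0.38 (SE 0.03, edgeR adjusted p 7.70e-11) and cKO below APP/PS1 by -0.31 (SE 0.03, edgeR adjusted p 5.28e-09). Against wild type the change was -0.69 (SE 0.03, edgeR adjusted p 5.03e-16), the lowest value of the 10 genes in that comparison. With offsets the 3 values were -0.56, -0.19 and -0.75, all still called.

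Cd74 is the invariant chain that escorts class II, and is also a surface receptor (gene 16149, on chromosome 18). It did not fall with the class II chains in cKO against APP/PS1, whereas in cKO against wild type it was lower as they were. Its level was 722, 759 and 730.4 CPM in wild type, 643, 684 and 645 CPM in APP/PS1 and 642, 687 and 637 CPM in cKO. Every wild type library was above the others, and APP/PS1 and cKO overlapped. The change was -0.17 in APP/PS1 against wild type (SE 0.03, edgeR adjusted p 8.90e-05), -0.17 in cKO against wild type (SE 0.03, edgeR adjusted p 8.93e-05) and -0.005 in cKO against APP/PS1 (SE 0.03, edgeR adjusted p 0.912). With offsets, Cd74 was called higher in cKO against APP/PS1, by 0.06 (edgeR adjusted p 0.0229).

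The proportions of these transcripts within a library therefore differed between groups. The TPM ratio of Cd74 to H2-Aa was 2.16 ± 0.083 in wild type, 1.64 ± 0.076 in APP/PS1 and 2.74 ± 0.124 in cKO (SD, n = 3). The 3 groups did not overlap on this ratio. The ratio of H2-Aa to H2-Ab1 was 1.28 ± 0.079 in wild type, 1.53 ± 0.050 in APP/PS1 and 1.27 ± 0.081 in cKO, with wild type and cKO alike in range. The ratio of H2-Eb1 to H2-Ab1 was 0.692 ± 0.038 in wild type, 0.542 ± 0.008 in APP/PS1 and 0.611 ± 0.013 in cKO. Ratios within a library do not depend on the library scaling, but they keep any dependence on length and GC content. The lower ratio of Cd74 to H2-Aa in APP/PS1 was not kept with offsets, under which H2-Aa fell more than Cd74, whereas the higher ratio in cKO was. For H2-Eb1 and H2-Ab1 the changes with offsets were -0.56 and -0.52 in APP/PS1 against wild type, so little of their lower ratio was left. In cKO against APP/PS1 they were -0.19 and -0.09, which turns the higher ratio into a lower one.

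On the TMM scale both peptide exchange chains were highest in APP/PS1, but on TPM they were not called in APP/PS1 against wild type (H2-DMa -0.06, limma adjusted p 0.336; H2-DMb1 0.01, limma adjusted p 0.828) or in cKO against APP/PS1 (H2-DMa -0.09, limma adjusted p 0.135; H2-DMb1 -0.02, limma adjusted p 0.736). Relative to the median of all genes, 7 scalings gave H2-DMa 0.29 to 0.36 in APP/PS1 against wild type and -0.28 to -0.24 in cKO against APP/PS1. For H2-DMb1 they gave 0.27 to 0.45 and -0.21 to -0.10. H2-DMa (gene 14998, chr17:34119693-34139101) was at 118, 133 and 124 CPM in wild type, 149, 158 and 161 CPM in APP/PS1 and 121, 138 and 129 CPM in cKO. APP/PS1 lay above both other groups, which overlapped. It rose by 0.32 in APP/PS1 against wild type (SE 0.05, edgeR adjusted p 1.83e-05) and fell by 0.27 in cKO against APP/PS1 (SE 0.05, edgeR adjusted p 0.000115), and against wild type the cKO value was 0.05 (SE 0.05, edgeR adjusted p 0.471). H2-DMb1 (gene 14999, chr17:34153191-34160229) was at 67.8, 71.8 and 69.9 CPM in wild type, 84.1, 96.1 and 97.8 CPM in APP/PS1 and 76.4, 81.3 and 80.96 CPM in cKO. Its groups did not overlap, with cKO between wild type and APP/PS1. It rose by 0.41 in APP/PS1 (SE 0.05, edgeR adjusted p 1.04e-07) and fell by 0.22 in cKO against APP/PS1 (SE 0.05, edgeR adjusted p 0.000432), staying 0.19 above wild type (SE 0.05, edgeR adjusted p 0.00263). Against wild type it was not called with library totals (0.08, edgeR adjusted p 0.157), on FPKM with a pseudocount of 1 (0.08, limma adjusted p 0.220) or 0.1 (0.08, limma adjusted p 0.218), or on TPM (-0.009, limma adjusted p 0.893), so 3 of 7 scalings called it. Relative to the median of all genes, H2-DMb1 lay at 0.13 to 0.20 in cKO against wild type under the 7 scalings.

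Counting of these chains is less certain than that of the others. Of the 50-nt windows of H2-DMb1 transcripts, 22.7% also occur in H2-DMb2, its neighbour and near copy, and how the authors assigned shared reads is not stated. H2-DMb2 was 0.50 lower in APP/PS1 than in wild type (log2 change -0.50, SE 0.09, edgeR adjusted p 4.45e-05), opposite to H2-DMb1. Of the exonic bases of H2-DMa, 10.4% overlap Brd2 on the opposite strand, and for Ciita 3.45% overlap Dexi, with strand-specific counting not stated. Counting both strands, H2-DMa shared 8.43% of its 50-nt windows with Brd2 and Ciita 1.46% with Dexi. The genes other than H2-DMb1, H2-DMa and Ciita shared 0.514% of such windows or fewer with any other gene.

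Ciita, the transactivator that sets class II transcription in antigen-presenting cells (gene 12265, chr16:10480014-10531064), was at 5.37, 5.84 and 5.73 CPM in wild type, 3.80, 4.17 and 4.41 CPM in APP/PS1 and 5.17, 3.35 and 3.60 CPM in cKO. Wild type was above both disease-model groups, and cKO library 1 stood apart from the other two. Ciita fell by 0.45 in APP/PS1 against wild type (SE 0.14, edgeR adjusted p 0.00750) and by 0.48 in cKO against wild type (SE 0.14, edgeR adjusted p 0.00586). In cKO against APP/PS1 the value was -0.03 (SE 0.15, edgeR adjusted p 0.878). The call against wild type was lost in APP/PS1 with offsets (-0.27, edgeR adjusted p 0.111), and in cKO without its library 2 (-0.36, edgeR adjusted p 0.0533) and on FPKM with a pseudocount of 1 (-0.18, limma adjusted p 0.0566) or 0.1 (-0.39, limma adjusted p 0.0663).

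The costimulators bind CD28 and CTLA4 on T cells (Cd80, Cd86) or the CD40 ligand (Cd40). Cd86 (gene 12524, chr16:36568956-36666158) was at 188, 174 and 189 CPM in wild type, 238, 226 and 244 CPM in APP/PS1 and 181, 173 and 185 CPM in cKO. APP/PS1 stood above wild type and cKO, which overlapped. Cd86 rose by 0.36 in APP/PS1 (SE 0.04, edgeR adjusted p 3.06e-09) and fell by 0.40 in cKO against APP/PS1 (SE 0.04, edgeR adjusted p 8.17e-10), with -0.03 against wild type (SE 0.04, edgeR adjusted p 0.50). In cKO against wild type, 4 of 7 scalings called Cd86 lower (library totals, FPKM with either pseudocount, and TPM at -0.23). Relative to the median of all genes it lay at -0.06 to -0.02 there under the 7 scalings. Cd80 (gene 12519, chr16:38457430-38495958) was at 47.5, 46.8 and 46.5 CPM in wild type, 41.4, 39.2 and 39.6 CPM in APP/PS1 and 35.3, 34.7 and 37.8 CPM in cKO. It stepped down over the 3 groups without overlap. The change was -0.23 in APP/PS1 against wild type (SE 0.05, edgeR adjusted p 0.000168), -0.38 in cKO against wild type (SE 0.05, edgeR adjusted p 2.05e-07) and -0.15 in cKO against APP/PS1 (SE 0.05, edgeR adjusted p 0.0105). The last call was lost without cKO library 2 (-0.13, edgeR adjusted p 0.0544), without APP/PS1 library 1 (-0.13, edgeR adjusted p 0.0545), with offsets (-0.09, edgeR adjusted p 0.122), on TPM (-0.03, limma adjusted p 0.522) and with DESeq2 (-0.15, adjusted p 0.0541).

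The TPM ratio of Cd86 to Cd80 was 3.44 ± 0.141 in wild type, 4.82 ± 0.251 in APP/PS1 and 4.29 ± 0.178 in cKO (SD, n = 3), again with no overlap between groups. Cd40 (gene 21939, chr2:165055614-165071654) was at 5.84, 6.11 and 5.32 CPM in wild type, 6.94, 6.83 and 6.57 CPM in APP/PS1 and 3.97, 4.60 and 4.48 CPM in cKO. Every cKO library was below every other library. Cd40 fell by 0.64 in cKO against APP/PS1 (SE 0.11, edgeR adjusted p 2.99e-05) and by 0.40 against wild type (SE 0.12, edgeR adjusted p 0.00501; DESeq2 adjusted p 0.0614). Its value of 0.23 in APP/PS1 against wild type did not pass (SE 0.11, edgeR adjusted p 0.0618), but passed with DESeq2 size factors (0.26, edgeR adjusted p 0.0439), with only these groups in the fit (0.27, edgeR adjusted p 0.0354) and with offsets (0.26, edgeR adjusted p 0.0391).

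**Figure D2:**
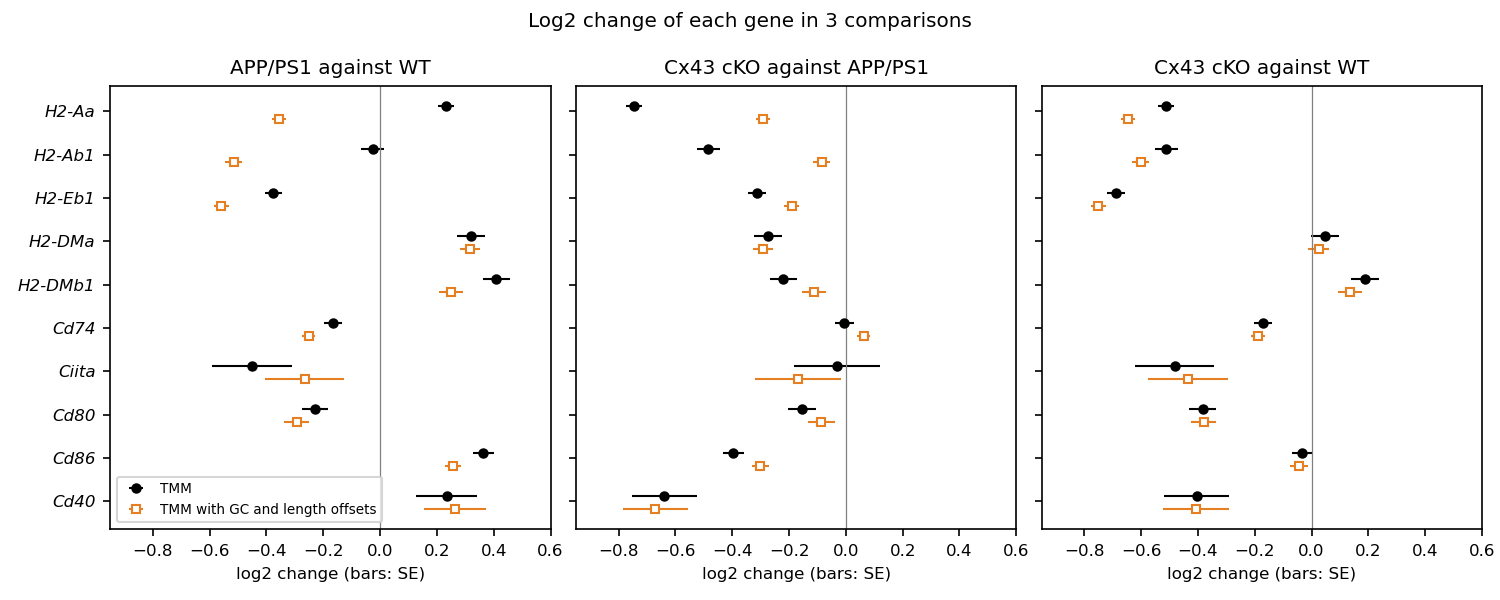
Log2 change of each gene in the 3 comparisons, with SE bars; black circles are TMM-scaled fits and open squares add per-library offsets for GC content and transcript length. H2-Aa in APP/PS1 against wild type sits at 0.23 without and -0.35 with offsets. In cKO against APP/PS1, Cd86 sits at -0.40 without and -0.30 with offsets, and Cd40 at -0.64 and -0.67.

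Library values were fully separated for 9 of the 10 genes in APP/PS1 against wild type, where this held for 63.5% of all tested genes, and for 8 of 10 in cKO against APP/PS1, where it held for 59.6%. It also held for 8 of 10 between cKO and wild type, where it held for 54.6%. The two-sided exact permutation p was 0.1 for each such gene, the smallest that 3 libraries against 3 allow. In 3 of the 10 genes the highest library had the same number in all groups, library 2 for H2-Ab1 and Cd74 and library 3 for Cd86.

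Over 7 scalings (TMM, DESeq2 size factors, library totals, GC and length offsets, FPKM with pseudocounts of 1 and 0.1, and TPM), 5 genes were called lower in cKO than in APP/PS1 under each one, namely H2-Aa, H2-Ab1, H2-Eb1, Cd86 and Cd40. The cKO change of H2-Aa ranged from -0.75 to -0.29, that of H2-Ab1 from -0.48 to -0.09 and that of Cd40 from -0.67 to -0.39. In APP/PS1 against wild type, H2-Eb1, Cd74 and Cd80 were called lower under all 7 and no gene was called higher under all 7. On TPM the changes of H2-DMa, Cd86 and Cd40 there were -0.06, -0.03 and -0.13, none called. Relative to the median of all genes the same scalings gave 0.29 to 0.36 for H2-DMa, 0.27 to 0.40 for Cd86 and 0.20 to 0.28 for Cd40. Against wild type, 6 genes were called lower in cKO under all 7, namely H2-Aa, H2-Ab1, H2-Eb1, Cd74, Cd80 and Cd40. Relative to the median of all genes, Cd74 lay at 0.006 to 0.07 in cKO against APP/PS1 under the 7 scalings.

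**Figure D3:**
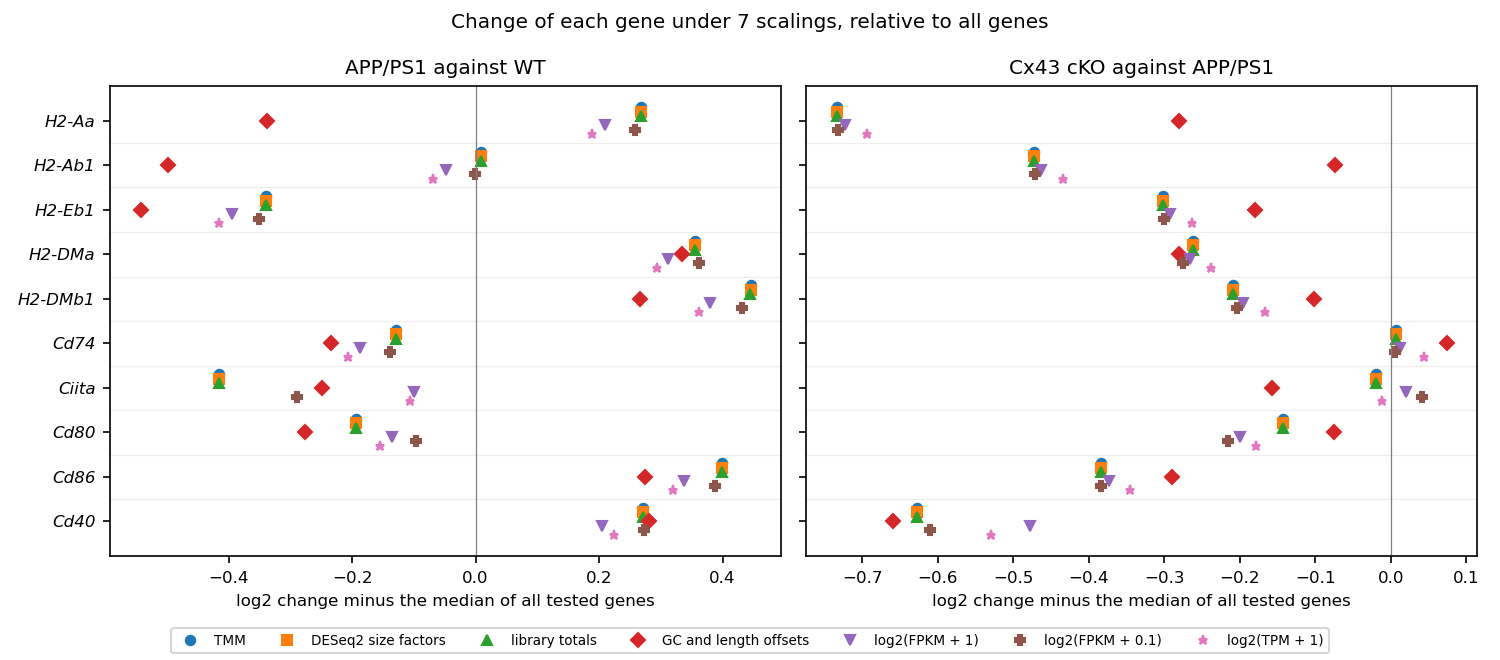
Log2 change of each gene minus the median of all tested genes (horizontal axis) under 7 scalings, for APP/PS1 against wild type and cKO against APP/PS1. The GC and length offsets (red diamonds) stand apart for H2-Aa and H2-Ab1, and all 7 points of H2-Aa, H2-Ab1, H2-Eb1, Cd86 and Cd40 lie left of 0 in cKO against APP/PS1.

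The rest of the class II pathway was read from a list of 19 genes, of which 18 were tested. In APP/PS1 against wild type 7 were called higher and 5 lower (9 and 6 with offsets), and in cKO against APP/PS1 1 was called higher and 7 lower (2 and 4 with offsets). These counts stand beside 26.9% of all genes called higher and 32.0% lower in the first comparison, and 27.3% and 27.7% in the second. Lgmn, a lysosomal endopeptidase, fell by 0.11 in APP/PS1 against wild type (edgeR adjusted p 0.00242) and rose by 0.16 in cKO against APP/PS1 (edgeR adjusted p 2.07e-05), the opposite order to the cathepsins. Ctss, the cathepsin that trims the invariant chain in antigen-presenting cells, rose from 4683 CPM ± 106 in wild type to 9271 CPM ± 299 in APP/PS1 and was 5414 CPM ± 165 in cKO (SD, n = 3), a log2 change of 0.99 and then -0.78 (edgeR adjusted p 7.09e-21 and 1.40e-18). Ctsl rose by 1.54 in APP/PS1 and fell by 0.47 in cKO against APP/PS1. Ctsh rose by 0.51 and fell by 0.18, and with offsets its fall did not pass (edgeR adjusted p 0.0595). Ifi30, a lysosomal thiol reductase that unfolds antigens, fell by 0.58 in APP/PS1 against wild type and was -0.03 in cKO against APP/PS1 (edgeR adjusted p 0.535), and in the latter it was called higher with offsets (0.41, edgeR adjusted p 4.12e-13).

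H2-Oa and H2-Ob form H2-O, which restrains H2-DM. H2-Oa was 24.9 CPM ± 1.40 in wild type, 39.9 CPM ± 1.16 in APP/PS1 and 28.4 CPM ± 0.205 in cKO (SD, n = 3). It rose by 0.68 in APP/PS1 (edgeR adjusted p 1.74e-11) and fell by 0.49 in cKO against APP/PS1 (edgeR adjusted p 9.07e-09), but with offsets these were 0.19 (edgeR adjusted p 0.00213) and -0.09 (edgeR adjusted p 0.128). H2-Ob rose by 0.41 and fell by 0.31, and both calls held with offsets (0.35 and -0.27). March1, a ubiquitin ligase that removes class II and Cd86 from the surface, was -0.02 in APP/PS1 against wild type (edgeR adjusted p 0.589) and fell by 0.10 in cKO against APP/PS1 (edgeR adjusted p 0.0197), where it was 0.001 with offsets (edgeR adjusted p 0.979).

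Of the factors that bind the promoter boxes, Rfx5 fell by 0.22 in APP/PS1 against wild type (edgeR adjusted p 0.000215) and Rfxank fell by 0.23 in cKO against APP/PS1 (edgeR adjusted p 0.00373). Nfyb rose by 0.46 and Creb1 by 0.17 in APP/PS1 against wild type, while Nfyc fell by 0.17 and Rfxap and Nfya did not pass. In cKO against APP/PS1, none of Rfx5, Rfxap, Nfya, Nfyb, Nfyc and Creb1 passed. Among 12 genes of the interferon gamma and Ciita control list, 2 were called higher and 5 lower in APP/PS1 against wild type (4 and 4 with offsets). In cKO against APP/PS1, 5 were called higher and 2 lower (4 and 1 with offsets). Of all tested genes, 26.9% were called higher and 32.0% lower in the first comparison, and 27.3% and 27.7% in the second. Ifng itself was 1.17, 3.64 and 2.54 CPM in wild type, APP/PS1 and cKO. Its counts were low, at 20 to 31 per wild type library. Ifng rose by 1.64 in APP/PS1 against wild type (edgeR adjusted p 3.98e-08), and by 0.92 with offsets (edgeR adjusted p 0.000191). In cKO against APP/PS1 its change was -0.51 (edgeR adjusted p 0.0120), but 0.07 with offsets, no longer a fall and not called (edgeR adjusted p 0.770). Irf1, which binds Ciita promoters, fell by 0.47 in APP/PS1 against wild type and by 0.08 in cKO against APP/PS1. Ifngr1 fell by 0.23 in APP/PS1. Jak2, a kinase of the interferon gamma receptor, rose by 0.37 in cKO against APP/PS1 (edgeR adjusted p 2.62e-09), opposite in sign to the class II chains there.

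**Figure D4:**
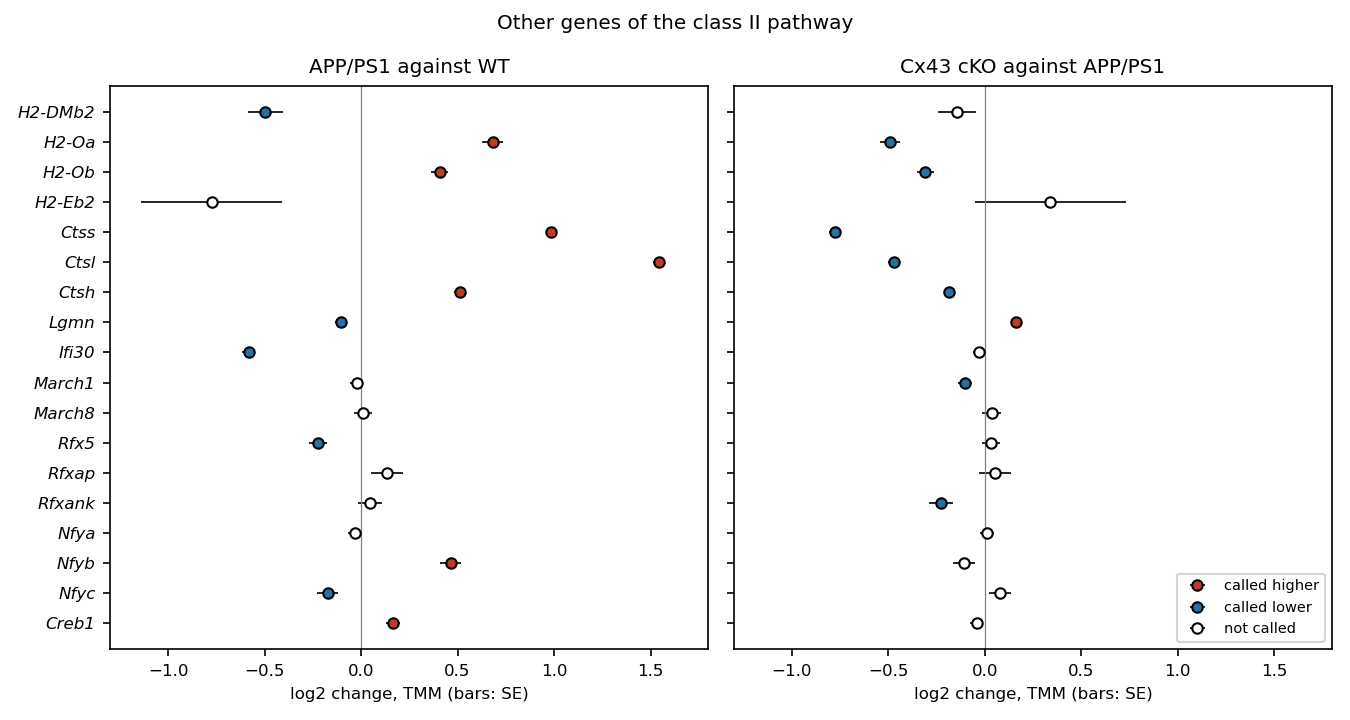
Log2 change (TMM-scaled, SE bars) of 18 tested genes of the wider class II pathway list in APP/PS1 against wild type and cKO against APP/PS1; red is called higher, blue called lower, white not called. Ctss, Ctsl, Ctsh, H2-Oa and H2-Ob lie right of 0 in the first panel and left of 0 in the second.

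Other cells that carry class II were followed by markers. The microglial markers (9 genes) were abundant, summing to 19174 to 19487 CPM in wild type, 22541 to 22834 in APP/PS1 and 19825 to 20040 in cKO, and no marker of any list was at 3 counts or fewer in all libraries. The sum hides differences between its genes. Of the 9, 2 were called higher and 5 lower in cKO against APP/PS1 (1 and 5 with offsets). Cx3cr1, which drives the recombinase, was 2260 CPM in wild type, 2231 CPM in APP/PS1 and 1214 CPM in cKO. Border macrophage markers (8 genes) summed to 987 to 1001 CPM in wild type, 784 to 786 in APP/PS1 and 701 to 711 in cKO, and 7 of 8 were called lower in cKO than in APP/PS1. In that comparison 27.3% of all tested genes were called higher and 27.7% lower. Dendritic cell markers (10 genes) summed to 104 to 106, 83.6 to 87.1 and 78.4 to 84.9 CPM. Of these 10, 4 were called higher and 2 lower in cKO against APP/PS1, near the shares of all genes. B cell markers (7 of 8 analysed) summed to 67.8 to 70.9, 42.5 to 46.9 and 50.8 to 54.8 CPM, with 4 called higher and 0 lower in cKO against APP/PS1. Monocyte markers (6 genes) summed to 560 to 581, 208 to 231 and 840 to 853 CPM, all 6 higher in cKO than in APP/PS1. Neutrophil markers (9 genes) summed to 2870 to 2885, 888 to 907 and 8355 to 8484 CPM. T and NK cell markers (6 of 7 analysed) summed to 30.3 to 32.3, 54.0 to 55.0 and 35.1 to 37.0 CPM. The part of these cells in the class II values was not tested. The summed H2-Aa, H2-Ab1, H2-Eb1 and Cd74 were 1513 to 1565 CPM in wild type, 1415 to 1480 in APP/PS1 and 1172 to 1241 in cKO.

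**Figure D5:**
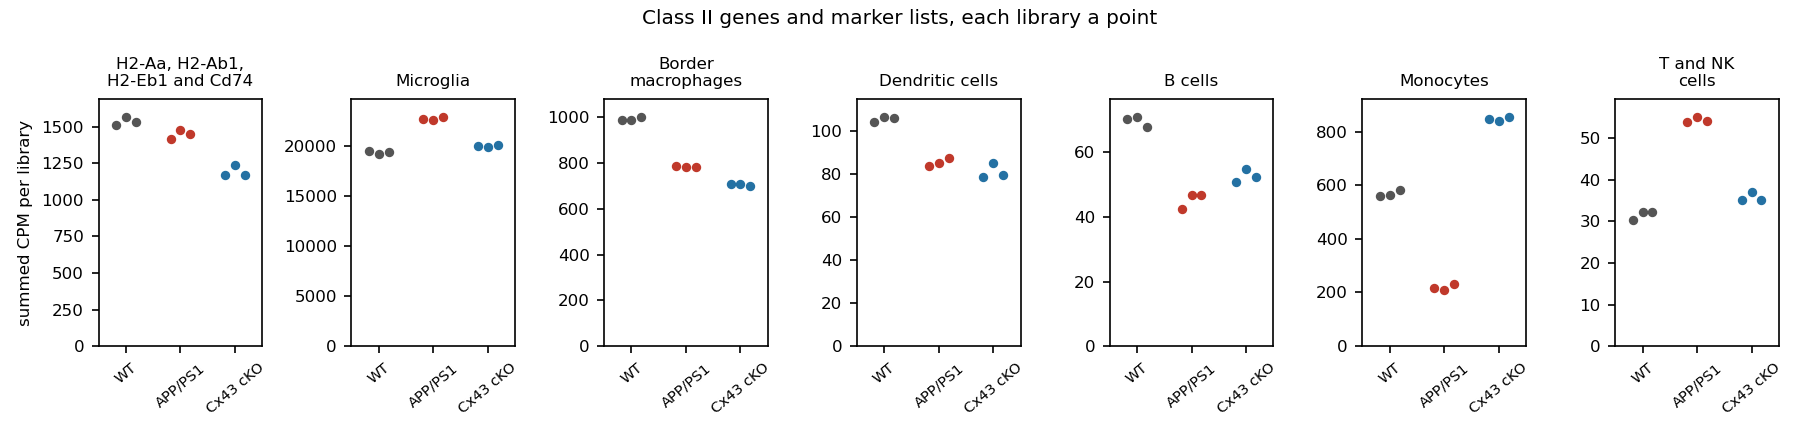
Summed CPM per library (points, linear axes from 0) of H2-Aa, H2-Ab1, H2-Eb1 and Cd74 and of 6 marker lists in the 3 groups. The class II and border macrophage sums are lowest in cKO, whereas the B cell and monocyte sums are lowest in APP/PS1.

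Among 10888 genes with a mean of at least 5 CPM, those with the centred log2 CPM profile closest to the sum of H2-Aa, H2-Ab1, H2-Eb1 and Cd74 over the 9 libraries were Sertad1, Dapp1, Sparcl1, Lgi3 and Phyhd1. Their root mean square difference from it was 0.029 to 0.041 log2 units, where the profile itself spans 0.42. For Ciita the closest were Castor1, Zic1, Dhtkd1, Tdrp and Fam149a (0.130 to 0.138, span 0.78). For Cd40 they were Ank2, Bivm, Ms4a6c, Dbndd2 and Polr2h (0.078 to 0.089, span 0.79). These profiles rest on 3 group levels and describe likeness only.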

How the data were processed

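PolyA RNA was sequenced with single-end 50 nt reads, per the labels. HISAT, Bowtie2, DESeq2 and the build GRCm38.p6 are named without roles or versions, per the submitters' processing notes; the counter and annotation are not given in the sources used here. The authors deposited estimated counts (with decimals), FPKM, TPM and normalised counts, a signal scaled by a factor per library, which was not used. All columns matched a library by name.

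Estimated counts were rounded (the design had assumed plain counts) and tested with edgeR 4.0.16 in R 4.3.3: TMM, filterByExpr, robust quasi-likelihood, 9 libraries, a mean per group, Benjamini-Hochberg over 14696 genes. No pair of libraries in a group agreed within sampling noise. The fit was tested on simulated data. The simulated libraries were independent and had no shift by length or GC content. That test therefore does not cover such shifts or a likeness of same-numbered libraries. Length and GC content came from GENCODE M21 (longest coding transcript, 17905 genes), with offsets by 10 bins of each. Limma 3.58.1 was used on log2 FPKM and TPM and DESeq2 1.42.0 as an alternative test. The main fit had no block for the replicate number, although same-numbered libraries of different groups deviated alike (see the processing part of the closing section).

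The members and lists were chosen with earlier results of these data known. Named are the 10 members, members of the pathway, interferon, costimulator and T cell lists, and the 5 nearest profiles. Ighm and Trbc2 were not analysed here.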

Additional observations from a re-analysis of the deposited data

How the results depend on the processing

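With a threshold of 2-fold, 0 of the 10 genes were called in any of the 3 comparisons (edgeR; 0 also at an unadjusted p under 0.05 with edgeR, DESeq2 or limma-voom). Leaving out each library in turn gave 8 called genes in APP/PS1 against wild type and 7 to 8 in both other comparisons. Of 720 values under an alternative, 634 kept direction and side of the threshold, 43 were weaker, 14 stronger and 29 changed sign. The sign changes in APP/PS1 against wild type were H2-Aa with offsets (-0.3546, also with the replicate block added) and on TPM (-0.1598); H2-Ab1 with only these groups (0.0084) and with libraries left out (-0.0651 to 0.0048); and, on TPM, H2-DMa (-0.0554), Cd86 (-0.0299) and Cd40 (-0.1252). In cKO against APP/PS1, Cd74 changed sign with library totals (0.0249), offsets (0.0631, and 0.063 with the block), FPKM (0.0229 and 0.023 with pseudocounts of 1 and 0.1), TPM (0.1878) and libraries left out (-0.0413 to 0.0217). Ciita did so on FPKM (0.0311 and 0.0582), TPM (0.1334) and with libraries left out (-0.2493 to 0.0866). In cKO against wild type, H2-DMa changed sign with library totals (-0.0617), FPKM (-0.0586 and -0.0592), TPM (-0.1485) and libraries left out (-0.0006 to 0.0938), and H2-DMb1 on TPM (-0.009). The cause was not tested. With the replicate number as a block, 8, 8 and 8 genes were called and no call changed. The common coefficient of variation estimated by edgeR was 3.14% without the block and 0.99% with it. Deviations correlated over 0.1 in 7 of 9 same-numbered pairs (range 0.06 to 0.26) and in 0 of 18 other pairs. Of the 9 libraries, 8 correlated best with their own number. Counting depth limits Ciita and Cd40 most.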

Other observations

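Of 10 tested genes of a list of other costimulators and their signalling factors, 1 was called higher and 6 lower in APP/PS1 against wild type (2 and 5 with GC and length offsets), and 5 higher and 1 lower in cKO against APP/PS1 (5 and 1 with offsets). Of all tested genes, 26.9% were called higher and 32.0% lower in the first comparison, and 27.3% and 27.7% in the second. Cd83, which stabilises class II and Cd86 at the surface, was 4023 CPM ± 58.1 in wild type, 4847 CPM ± 46.4 in APP/PS1 and 3871 CPM ± 40.9 in cKO (SD, n = 3). It rose by 0.27 in APP/PS1 and fell by 0.32 in cKO against APP/PS1 (edgeR adjusted p 2.27e-10 and 6.36e-12). Cd274, which encodes the inhibitory ligand PD-L1, rose by 0.27 in cKO against APP/PS1 (edgeR adjusted p 3.67e-08). Icosl, the ligand of ICOS, fell by 0.55 in APP/PS1 against wild type (edgeR adjusted p 5.95e-15) and was 0.03 in cKO against APP/PS1 (edgeR adjusted p 0.374). Tnfsf9, the ligand of 4-1BB, fell by 0.48 in APP/PS1 against wild type.

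The T cell partners ranged widely in level. Lag3, an inhibitory receptor that binds class II, was 354 CPM ± 19.96 in wild type, 418 CPM ± 24.8 in APP/PS1 and 399 CPM ± 22.8 in cKO (SD, n = 3). It rose by 0.24 in APP/PS1 against wild type (edgeR adjusted p 0.00373) and was -0.07 in cKO against APP/PS1 (edgeR adjusted p 0.350). Ctla4 was 9.18 CPM ± 0.785 in wild type, 8.12 CPM ± 0.726 in APP/PS1 and 23.5 CPM ± 1.51 in cKO, and Icos was 10.8 CPM ± 0.316, 8.09 CPM ± 0.840 and 20.5 CPM ± 1.22 (SD, n = 3). Both rose in cKO against APP/PS1, by 1.53 and 1.34 (edgeR adjusted p 1.21e-14 and 1.61e-13). Cd28 rose by 0.69 in APP/PS1 against wild type and fell by 0.30 in cKO against APP/PS1. Of the 6 genes of this list, 4 were called higher and 1 lower in cKO against APP/PS1 (4 and 2 with offsets). Of 6 T and NK cell markers, 5 were called lower in that comparison and 0 higher (3 and 1 with offsets). Over all tested genes, 27.3% were called higher and 27.7% lower there. The part of T and NK cells in the values of the T cell partners was not tested.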
